A study of Mus musculus with 12 samples.

Results

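Dorsal root ganglia taken 7 days after spared nerve injury were compared with ganglia taken 1 day after the same injury, in 3 RNA-seq libraries at each time, which makes 6 of the 12 libraries of the series. The mice were adult male C57BL/6J animals aged 9 to 10 weeks, with no transgene or deletion named in the labels. In the injured groups 2 sciatic branches, the common peroneal and the tibial, had been tied and severed and the sural spared. The 3 naive and 3 day 3 libraries entered the same model through the spread between libraries, and their values are given beside those of the genes described. The labels do not say whether a library came from 1 mouse or a pool, which ganglia were taken, or whether both sides were included, so the p-values measure the spread between these libraries, which may be technical. No sham-operated group was analysed here. Because both groups had been operated on, this comparison asks how the ganglion's response moved on from its first day to its first week.

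The ganglion holds the cell bodies of sensory neurons, each wrapped in satellite glia, with Schwann cells along the axons and with resident macrophages, fibroblasts and vessels between them. Cutting a peripheral axon is known to switch the neuron within hours to days from a transmitting to a growing state, in which transcription factors such as Atf3, Jun and Sox11 rise first and growth proteins and neuropeptides such as galanin and neuropeptide Y follow. Injured neurons also make the cytokine Csf1, whose receptor Csf1r is carried by macrophages, and macrophages gather in the ganglion over the following days. Early transient genes fall back as this second phase builds.

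Of 24060 genes in the files, 14195 had an RPKM (reads scaled to the length of the gene and the depth of the library) of at least 1 in at least 3 of the 12 libraries and were tested. Levels are printed in RPKM as deposited, before scaling, and differences on the scaled log2 scale. A gene was called when its adjusted p was under 0.05 in limma, a linear model fitted across all genes on log2(RPKM + 0.5), with Benjamini-Hochberg adjustment. At day 7, 87 genes were higher (0.613% of those tested) and 51 were lower (0.359%) than at day 1. The rises were larger: 48 of the 87 but 17 of the 51 changed at least 2-fold, and the median log2 difference was 1.06 among the higher and -0.85 among the lower genes. In all 138 genes the 3 day 7 libraries lay on one side of the 3 day 1 libraries. Over all genes tested, libraries separated in this way with day 7 higher in 6.95% and with day 7 lower in 6.28%. Without scaling between libraries the calls were 94 higher and 34 lower, so that 73.4% of them were rises, against 63.0% with scaling.

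**Figure D1:**
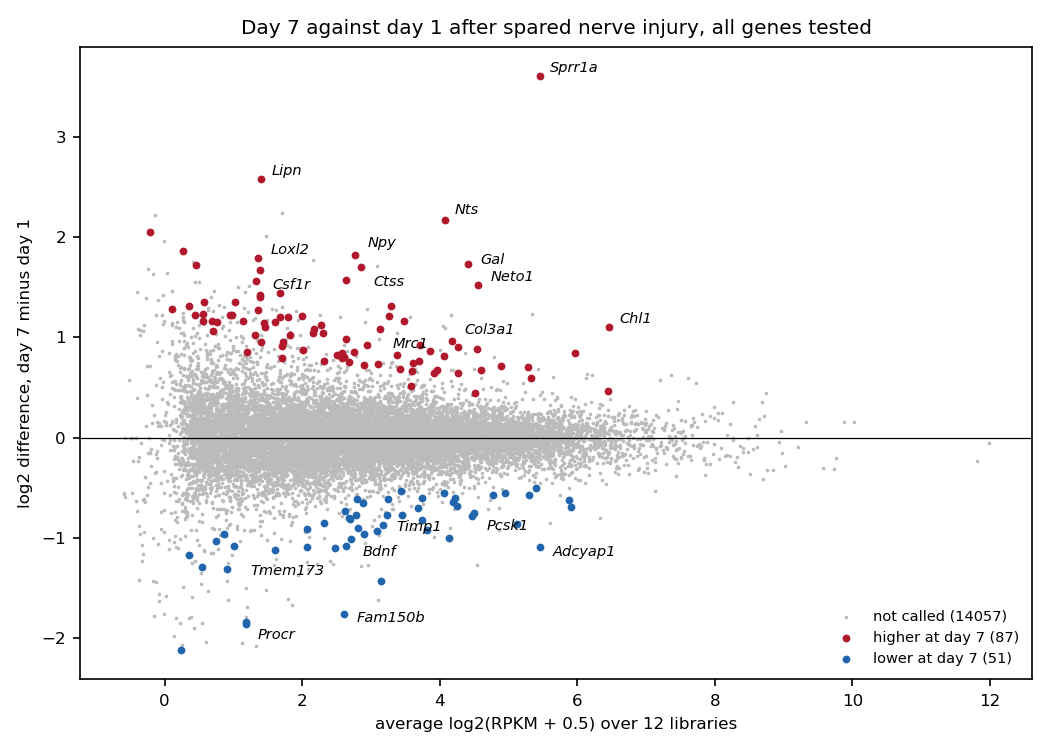
Each point is 1 of 14195 genes, with the average log2(RPKM + 0.5) over 12 libraries on the x axis and the log2 difference between day 7 and day 1 on the y axis. The 87 genes called higher (red) reach a log2 difference of 3.61 at Sprr1a, and the 51 called lower (blue) lie between -0.50 and -2.12.

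RNA of the ganglion's main cell types was present at both times. Across the 6 libraries Elavl4, which marks neurons, stood at 51.3 to 57.7 RPKM, Fabp7 of satellite glia at 81.6 to 261 RPKM, Mbp of Schwann cells at 28.1 to 47.5 RPKM and Cdh5 of vessels at 5.06 to 9.30 RPKM. Of the erythrocyte markers Hbb-bs was listed at 0 in all 6 and Hba-a1 reached at most 0.0656 RPKM, while Alas2, a heme synthesis enzyme, stood at 15.8 to 24.3 RPKM. Of the central glia markers Olig2 reached at most 0.0232 RPKM and Mog at most 0.110 RPKM, while the water channel gene Aqp4 stood at 2.48 to 3.64 RPKM. Reads recovered from the RPKM steps numbered 12262606 to 16004200 per library. Day 7 replicate 1 stood apart on the second principal component (-32.9, against -17.8 to 15.1 in the other 5 libraries of the comparison). Its ribosomal protein genes summed to 543 RPKM, against 690.9 to 1216 RPKM in those 5 libraries, and several of the rises below were smallest in it. Day 7 replicate 2 held muscle transcripts, with the fast myosin gene Myh4 at 10.2 RPKM, against at most 1.5 RPKM in the other 5.

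Because members of both directions carried matches to well-known response elements, the 250 bases before the start of 5 called genes are shown, read 5′ to 3′ on the gene's own strand from RefSeq on GRCm38.p6. Capitals mark a match to the AP-1 element TGANTCA, which Fos, Jun and Atf family dimers can bind, or, in Pcsk1, to the cyclic AMP response element TGACGTCA. Sprr1a, Lipn and Nts had the 3 largest log2 rises of named genes, and Procr and Pcsk1 fell in every left-out-library fit.
Sprr1a: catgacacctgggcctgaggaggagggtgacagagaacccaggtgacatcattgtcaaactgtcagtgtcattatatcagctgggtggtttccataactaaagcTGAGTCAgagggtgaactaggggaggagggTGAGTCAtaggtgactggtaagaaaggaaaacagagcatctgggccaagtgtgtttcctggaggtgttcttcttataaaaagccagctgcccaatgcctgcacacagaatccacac
Lipn: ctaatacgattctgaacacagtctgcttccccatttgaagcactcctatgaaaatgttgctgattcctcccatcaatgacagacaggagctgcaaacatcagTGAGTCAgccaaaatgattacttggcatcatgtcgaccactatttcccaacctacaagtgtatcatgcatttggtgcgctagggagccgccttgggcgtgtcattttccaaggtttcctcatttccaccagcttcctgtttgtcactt
Nts: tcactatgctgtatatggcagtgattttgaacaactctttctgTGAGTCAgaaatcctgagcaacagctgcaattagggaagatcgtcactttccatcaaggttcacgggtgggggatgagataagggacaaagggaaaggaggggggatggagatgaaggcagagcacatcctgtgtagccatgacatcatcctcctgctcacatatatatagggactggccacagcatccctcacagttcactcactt
Procr: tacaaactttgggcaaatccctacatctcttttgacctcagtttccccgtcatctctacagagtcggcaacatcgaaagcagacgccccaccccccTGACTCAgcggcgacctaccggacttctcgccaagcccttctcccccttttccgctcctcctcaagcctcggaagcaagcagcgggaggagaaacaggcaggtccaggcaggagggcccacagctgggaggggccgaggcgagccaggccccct
Pcsk1: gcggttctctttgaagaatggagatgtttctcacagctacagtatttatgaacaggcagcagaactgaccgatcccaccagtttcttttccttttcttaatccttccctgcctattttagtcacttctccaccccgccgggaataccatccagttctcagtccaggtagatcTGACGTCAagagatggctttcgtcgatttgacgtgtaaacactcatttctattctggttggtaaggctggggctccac
The regions are chr3:92485882-92486131 on the minus strand for Sprr1a, chr19:34067108-34067357 on the plus strand for Lipn and chr10:102490419-102490668 on the minus strand for Nts. Those of the genes that fell are chr2:155750967-155751216 for Procr and chr13:75089607-75089856 for Pcsk1, both on the plus strand. Sprr1a has 2 AP-1 matches, which begin 146 and 116 bases before its start. Lipn has 1 at 148 bases, Nts 1 at 207 bases and Procr 1 at 154 bases, and the Pcsk1 match begins 78 bases before the start. Searched on both strands in 250 bases, the AP-1 letters occurred in 2113 of 27025 genes with a RefSeq promoter (7.82%), in 10 of the 67 higher genes that have one (14.9%) and in 3 of 39 lower genes (7.69%). The cyclic AMP element occurred in 478 genes (1.77%), with Ltbp1 the one match among the higher and Pcsk1 the one among the lower genes. An ETS-type element searched as GAGGAAGT, a site type of the myeloid factor PU.1, occurred in 755 genes (2.79%), in 3 of the 67 higher genes (Ctsc, Hpgds and Pik3cg) and in none of the 39 lower genes. The windows of Gal, Npy, Adcyap1 and Ctss held none of these letters. The 27025 genes were not limited to the 14195 tested here, so their shares and those of the called genes rest on unlike sets. A match describes letters in a window and not binding.

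Genes that sensory neurons are known to switch on when their axons are cut were among those that rose, with Sprr1a the largest rise of the 87. Of 28 tested genes on a list of axotomy-induced neuronal genes, 8 were higher at day 7, none was lower and 20 were not called, with a median log2 difference of 0.45 against 0.00 over all genes tested. Of all genes tested 0.613% were called higher. The list was drawn up with earlier results of these data known, and its count is a description. The count ran from 4 to 8 over fits without any one day 1 or day 7 library, lowest without day 1 replicate 3, and was 4 without the 2 libraries that held muscle transcripts. Sprr1a, a small proline-rich protein that injured neurons make as they extend axons, lies on chromosome 3 (GRCm38, 92483952 to 92485895). It stood at 46.5, 9.54 and 19.5 RPKM in the day 1 libraries and at 148, 406 and 302 RPKM in the day 7 libraries, against 1.42 to 3.09 RPKM in naive ganglia. The log2 difference was 3.61 (SE 0.53, n = 3 per group, adjusted p = 0.0165), or 12.2-fold. All day 7 libraries were above all day 1 libraries, but the day 1 libraries themselves spread widely, and the call ended without day 1 replicate 3 (adjusted p = 0.0753), day 7 replicate 2 (0.0682) or day 7 replicate 3 (0.055).

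Of 13 tested genes on a neuropeptide list, 3 rose and 2 fell. The falls were those of Adcyap1 and of Bdnf, which encodes a neurotrophin and not a neuropeptide. Among all genes tested 0.613% were called higher and 0.359% lower. Nts, the precursor of neurotensin, was at 12.9, 6.74 and 9.06 RPKM at day 1 and at 27.8, 66.5 and 46.6 RPKM at day 7 (log2 difference 2.16, SE 0.29, adjusted p = 0.00467). Gal, the precursor of galanin, which acts on inhibitory receptors of sensory and spinal neurons, was at 19.7, 12.7 and 17.5 RPKM at day 1. At day 7 it was at 32.2, 78.0 and 72.4 RPKM (log2 difference 1.73, SE 0.25, adjusted p = 0.00683). Npy, the precursor of neuropeptide Y, was at 8.17, 4.40 and 6.54 RPKM at day 1 and at 18.5, 32.5 and 21.8 RPKM at day 7 (log2 difference 1.82, SE 0.28, adjusted p = 0.00975). For all 3 peptides the lowest day 7 value was in replicate 1, the library with the low ribosomal protein sum, and it still lay above every day 1 library. In naive ganglia Gal stood at 1.79 to 2.64 RPKM and Npy at 0 to 0.640 RPKM, so both were already higher than that at day 1 and higher again at day 7. The Npy call ended with a pseudocount of 0.1 (adjusted p = 0.232), and the other 8 tested neuropeptides did not pass, among them Calca (-0.19, adjusted p = 0.866) and Tac1 (-0.26, adjusted p = 0.732), which encode calcitonin gene-related peptide and substance P.

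**Figure D2:**
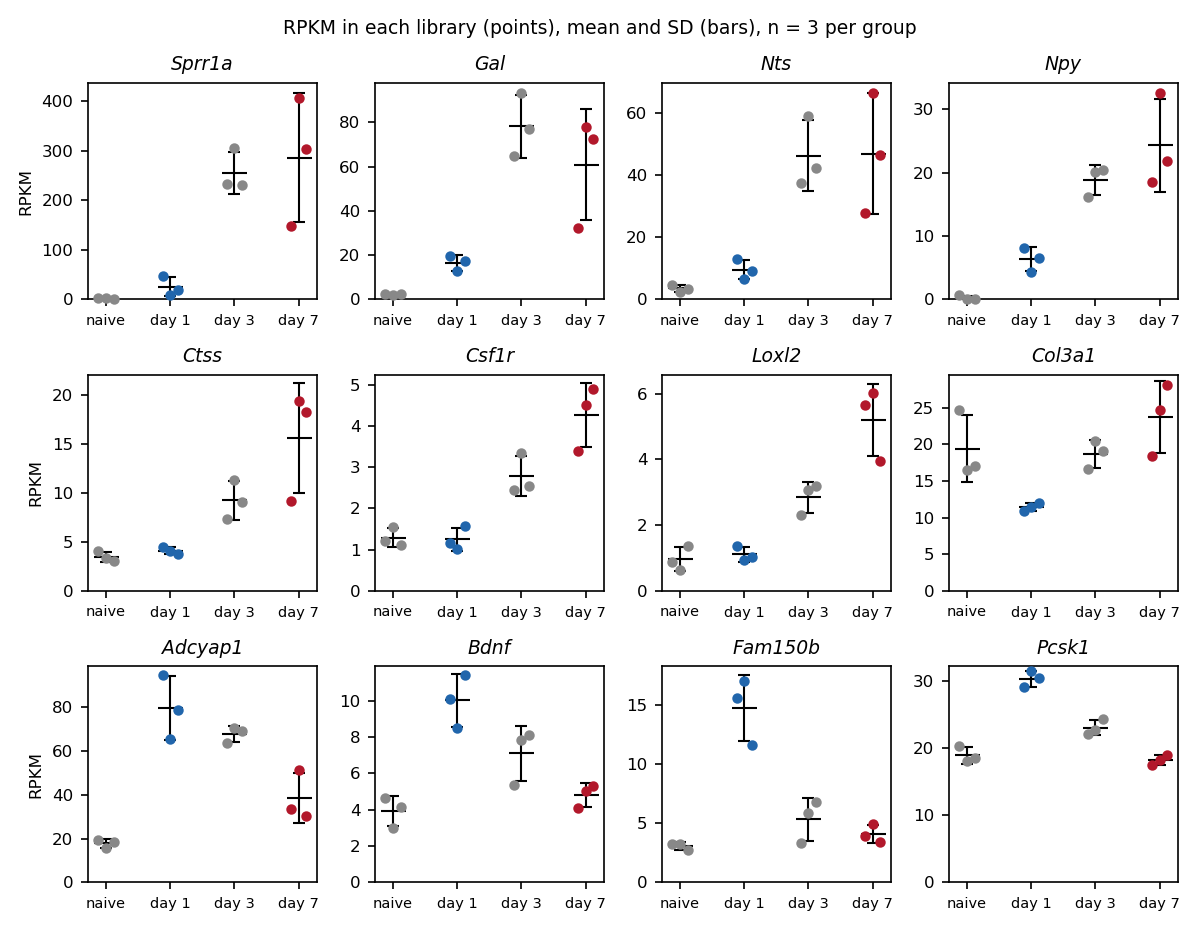
RPKM of 12 genes in each library (points) by group, with the mean and SD of 3 libraries (bars) on a linear axis from 0. Sprr1a, Gal, Nts and Npy stood higher at day 3 and day 7 than at day 1, Ctss, Csf1r and Loxl2 were highest at day 7, and Adcyap1, Bdnf, Fam150b and Pcsk1 were highest at day 1.

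The other injury-induced genes that rose included a receptor and proteins of the membrane and cytoskeleton. Anxa1, the calcium-dependent phospholipid-binding annexin A1, went from 6.97, 7.08 and 5.35 RPKM to 14.2, 16.9 and 20.8 RPKM (log2 difference 1.31, SE 0.19, adjusted p = 0.00407). It kept its call without any one library. Cckbr, the receptor for cholecystokinin that is known to appear in axotomized neurons, went from 2.78, 1.79 and 2.20 RPKM to 4.42, 7.16 and 5.82 RPKM (log2 difference 1.15, adjusted p = 0.0118). Lmo7, a LIM domain protein, rose by 0.86 (adjusted p = 0.0118) and the transmembrane protein gene Sez6l by 0.82 (adjusted p = 0.0182). The Cckbr call ended without day 1 replicate 3 (adjusted p = 0.0527) or day 7 replicate 2 (0.0574), and that of Lmo7 without day 1 replicate 3 (0.0535). Sez6l missed the threshold without any of day 1 replicate 2 or 3 or day 7 replicate 2 or 3, with adjusted p from 0.0596 to 0.0753.

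The transcription factors that open the injury response did not pass the test in either direction. Atf3 was at 72.9, 57.4 and 77.9 RPKM at day 1 and at 44.1, 70.1 and 53.3 RPKM at day 7, with naive libraries at 2.33 to 2.38 RPKM. The groups overlapped, and the log2 difference of -0.36 had a 95% interval from -0.67 to -0.05 before adjustment (adjusted p = 0.375). Jun had a log2 difference of -0.44 (adjusted p = 0.349) and Sox11 one of 0.23 (interval -0.15 to 0.61, adjusted p = 0.737). Gap43, the growth cone protein, was at 66.0, 42.5 and 75.3 RPKM at day 1 and at 62.3, 126 and 109 RPKM at day 7 (log2 difference 0.64, adjusted p = 0.286), with overlapping groups. Csf1, which encodes the macrophage growth factor, was at 10.7, 8.94 and 10.9 RPKM at day 1 and at 11.9, 15.7 and 14 RPKM at day 7. Its libraries did not overlap, but the log2 difference of 0.39 (interval 0.11 to 0.66) did not pass (adjusted p = 0.229).

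Neto1, Gabrg1, Pde1a, Chl1, Ppef1 and Lipn, none of them on the axotomy list, also rose. Neto1, an auxiliary subunit of kainate-type glutamate receptors, was at 16.6, 12.5 and 13.5 RPKM at day 1 and at 47.4, 46.9 and 34.0 RPKM at day 7 (log2 difference 1.52, SE 0.18, adjusted p = 0.00349). Its naive libraries, at 12.2 to 13.3 RPKM, overlapped the day 1 range. Gabrg1, a subunit of the GABA-A receptor, went from 7.59, 6.74 and 6.46 RPKM to 18.4, 19.0 and 12.8 RPKM (log2 difference 1.16, SE 0.17, adjusted p = 0.00423), and Pde1a, a calmodulin-dependent phosphodiesterase, rose by 1.21 (SE 0.19, adjusted p = 0.00882). These 3 genes stayed called without any one of the day 1 and day 7 libraries. Chl1, an adhesion molecule of growing axons, was at 75.5, 75.2 and 56.9 RPKM at day 1 and at 179, 159 and 123 RPKM at day 7. Its log2 difference was 1.10 (SE 0.19, adjusted p = 0.0138), and it missed the threshold without day 1 replicate 3 (0.0569) or day 7 replicate 2 (0.0542). Ppef1, a calcium-binding phosphatase gene known from sensory neurons, was among the most even: it stood at 44.9 to 46.2 RPKM in the day 1 libraries and at 76.9 to 91.8 RPKM in the day 7 libraries (log2 difference 0.85, SE 0.11, adjusted p = 0.00349). Ppef1 and the lipase gene Lipn were named after their values were seen. Lipn rose from 1.17, 0.274 and 0.779 RPKM to 5.94, 7.42 and 6.64 RPKM (log2 difference 2.57, SE 0.32, adjusted p = 0.00349), and its call ended with a pseudocount of 0.1 (adjusted p = 0.0824).

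Macrophage genes rose together. Of 34 listed genes 25 were tested, and 9 of these (Ctss, Csf1r, Emr1, Mpeg1, Ms4a7, Mrc1, Ccr2, Ptprc and Cybb) were higher at day 7 and none lower. The share called higher over all genes tested was 0.613%. All 25 macrophage differences were above 0, with a median log2 difference of 1.04 against 0.00 over all genes tested. In 20 of the 25 the day 7 libraries lay above all day 1 libraries, against 6.95% of all genes. The list's summed level was 91.4, 98.0 and 96.2 RPKM in the day 1 libraries and 144.5, 234.3 and 229.9 RPKM in the day 7 libraries. In naive libraries it was 90.3 to 117.7 RPKM and at day 3 it was 130.5 to 191.8 RPKM, so day 1 lay within the range of naive ganglia. In bulk tissue more cells of a type cannot be told apart from more RNA per cell. The count ran from 6 (without day 1 replicate 1 or 3) to 10 when any one day 1 or day 7 library was left out, and it was 5 without the 2 libraries that held muscle transcripts.

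Ctss encodes cathepsin S, a lysosomal protease of macrophages and microglia, and lies on chromosome 3 (GRCm38, 95526786 to 95556403). It was at 4.52, 4.03 and 3.81 RPKM at day 1 and at 9.20, 19.3 and 18.2 RPKM at day 7, with 3.10 to 4.05 RPKM in naive ganglia (log2 difference 1.70, SE 0.20, adjusted p = 0.00349). Csf1r, the receptor for Csf1 and for interleukin 34, went from 1.17, 1.01 and 1.57 RPKM to 3.39, 4.51 and 4.89 RPKM (log2 difference 1.42, SE 0.18, adjusted p = 0.00349). Emr1, an older symbol for the gene of the macrophage surface protein F4/80, went from 1.28, 1.08 and 1.03 RPKM to 2.98, 3.42 and 4.23 RPKM (log2 difference 1.28, SE 0.17, adjusted p = 0.00349). These are low levels, and the pseudocount makes the fold smaller than the ratio of the RPKM values. The mannose receptor gene Mrc1, a mark of tissue macrophages, rose from 5.51, 4.69 and 6.22 RPKM to 11.3, 14.2 and 11.7 RPKM (log2 difference 1.08, SE 0.17, adjusted p = 0.0086).

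The pore-forming protein gene Mpeg1 was the most even of these, at 2.21 to 2.40 RPKM in the day 1 libraries and 5.98 to 6.58 RPKM in the day 7 libraries (log2 difference 1.21, adjusted p = 0.00371). Ms4a7, a membrane protein of mature macrophages, rose by 1.67 on the log2 scale (adjusted p = 0.00407) and Cd33, a sialic acid-binding lectin of myeloid cells that is on no list and was named after its values were seen, by 1.56 (adjusted p = 0.00349). Ctss, Csf1r, Emr1, Mpeg1, Ms4a7 and Cd33 kept their calls under every alternative in which they were tested. The calls of 3 members were less firm. Ccr2, the chemokine receptor of recruited monocytes, rose by 1.11 (adjusted p = 0.0118), the leukocyte phosphatase CD45 gene Ptprc by 1.04 (adjusted p = 0.0323), and Cybb, an oxidase subunit, by 1.02 (adjusted p = 0.0445). Ccr2 missed the threshold without day 1 replicate 1 (0.0508) or 3 (0.0541). Ptprc missed it without any of the 6 libraries other than day 1 replicate 2 (adjusted p 0.0702 to 0.115), and also without naive replicate 3 (0.051) or day 3 replicate 2 (0.0531). Cybb missed it without any 1 of the 6 (0.0596 to 0.166), and without naive replicate 2 (0.0649) or 3 (0.0638) or day 3 replicate 1 (0.0592) or 2 (0.0601).

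**Figure D3:**
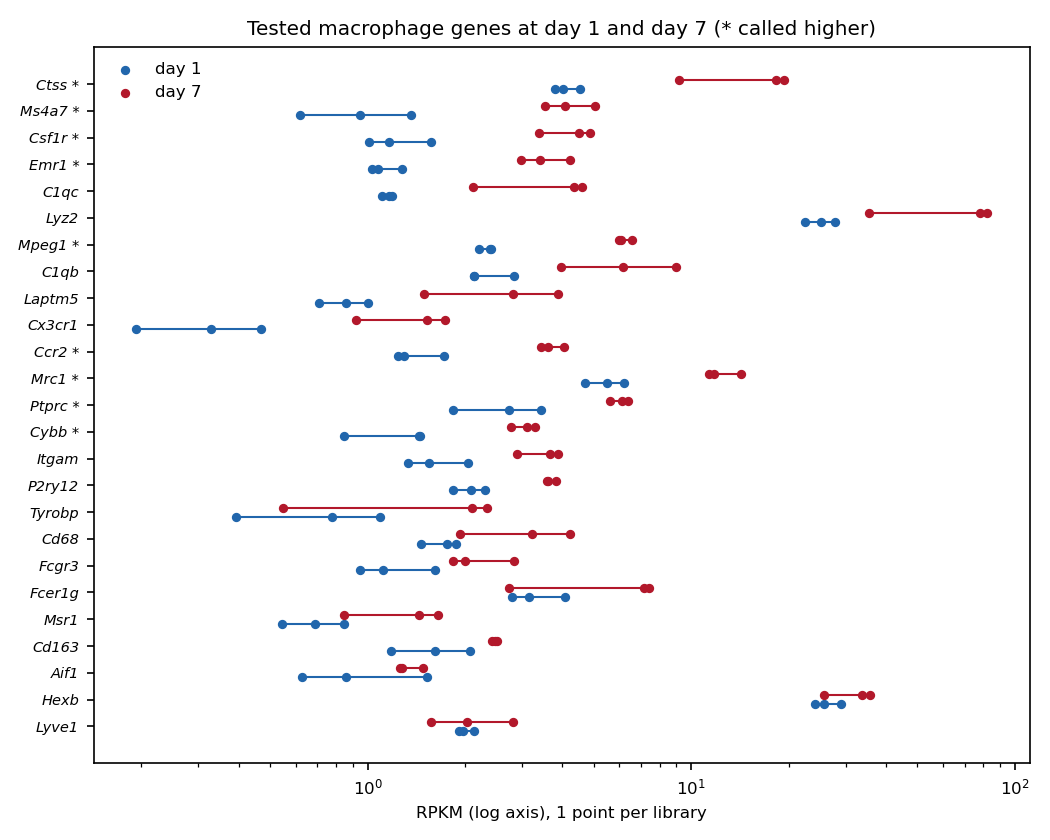
RPKM on a log axis for the 25 tested macrophage genes, with 1 point per library, lines spanning the 3 libraries of a group, day 1 in blue and day 7 in red, ordered by log2 difference. The 9 genes marked with an asterisk were called higher, and in 20 of the 25 the red points lie to the right of all blue points.

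Lyz2, the lysozyme gene of myeloid cells, was one of the most abundant macrophage genes, at 22.6 to 27.9 RPKM at day 1 and at 35.6, 82.3 and 77.9 RPKM at day 7. Its log2 difference of 1.23 just missed the threshold (adjusted p = 0.058), as did that of the complement subunit gene C1qc (1.25, adjusted p = 0.0726), and Cd68 had a difference of 0.65 (adjusted p = 0.3). In all 3 genes the lowest day 7 value was in replicate 1. Among 32 tested genes of lysosomal proteins 2 rose, Ctss and Ctsc, against 0.613% of all genes tested. Ctsc encodes the protease that activates granule enzymes of leukocytes (log2 difference 0.98, adjusted p = 0.00882). Of 16 antigen presentation genes none was called, 7 had an unadjusted p under 0.05, and voom on recovered reads called 1. The invariant chain gene Cd74 was at 11.4, 9.64 and 15.7 RPKM at day 1 and at 18.0, 31.6 and 35.2 RPKM at day 7 (log2 difference 1.11, adjusted p = 0.0821). All 8 tested neutrophil genes had differences above 0 (median 0.87), with no call in limma or voom and 1 unadjusted p under 0.05, and the lymphocyte gene Cd3e stood at 0.350 RPKM or less in each of the 6 libraries. In 16 cytokine and chemokine genes no call was made by limma or voom, with 7 unadjusted p under 0.05, and in 33 interferon response genes none by either, with 4.

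Genes of the collagen matrix rose in part. Of 22 tested collagens 3 were higher, none lower, and the median log2 difference was 0.28. Over all genes tested 0.613% were higher and the median was 0.00. Col3a1, a fibrillar collagen of soft connective tissue, was at 10.9, 11.4 and 12 RPKM at day 1 and at 18.4, 24.6 and 28.1 RPKM at day 7 (log2 difference 0.97, SE 0.13, adjusted p = 0.00365). Its naive libraries stood at 16.5 to 24.7 RPKM, so the day 1 libraries lay below the naive range and the day 7 range overlapped it. Col1a2, a chain of the main fibrillar collagen, rose by 0.60 (adjusted p = 0.0271) and Col5a3, of a minor fibrillar collagen, by 0.76 (adjusted p = 0.0308). Col1a2 missed the threshold without day 1 replicate 1 (0.132) or 3 (0.0879) or day 7 replicate 2 (0.0783) or 3 (0.0908), and Col5a3 without any of the 6 libraries but day 7 replicate 2 (0.0553 to 0.115). The list's count was thus 1 to 3 over left-out libraries, with 1 left without day 1 replicate 1 or 3 or day 7 replicate 3.

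Loxl2 encodes a lysyl oxidase-like enzyme that crosslinks collagen and elastin, and was the one gene called among 26 tested genes of collagen processing. It lies on chromosome 14 (GRCm38, 69609068 to 69695834). Its level was 1.36, 0.926 and 1.04 RPKM in the day 1 libraries and 5.64, 6.02 and 3.97 RPKM in the day 7 libraries, with 0.644 to 1.36 RPKM in naive and 2.31 to 3.18 RPKM in day 3 libraries. The log2 difference was 1.79 (SE 0.23, adjusted p = 0.00349), and it stayed past the threshold under every alternative in which it was tested. The groups of naive and day 1 libraries overlapped, while day 3 and day 7 lay above both. Its relatives Lox (-0.12, adjusted p = 0.917), Loxl3 (0.14, adjusted p = 0.865) and Loxl4 (-0.60, adjusted p = 0.32) were not called. Igf1, the growth factor made by fibroblasts and macrophages, went from 2.34, 2.75 and 2.62 RPKM to 6.38, 6.04 and 5.89 RPKM (log2 difference 1.08, SE 0.15, adjusted p = 0.00365), with naive libraries between, at 3.31 to 4.03 RPKM.

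Lists of proteins that anchor or cut the matrix gave few calls. Ltbp1, which tethers latent TGF-beta in the matrix, rose by 0.95 (adjusted p = 0.0218), the TGF-beta-induced adhesion protein gene Tgfbi by 0.92 (adjusted p = 0.0258), and the membrane metalloproteinase gene Mmp16 by 0.88 (adjusted p = 0.0179). Mmp16 was at 22.9, 22.2 and 18.1 RPKM at day 1 and at 43.2, 41.7 and 35.4 RPKM at day 7. It missed the threshold without day 1 replicate 3 (0.0802) or day 7 replicate 2 (0.0675). Ltbp1 missed it without day 1 replicate 2 (0.0712) or 3 (0.0941) or day 7 replicate 1 (0.0578) or 3 (0.0896), and Tgfbi without day 1 replicate 1 (0.111) or 2 (0.0934) or day 7 replicate 2 (0.107) or 3 (0.0997). Timp1, the secreted inhibitor of metalloproteinases, went the other way, from 13.1, 9.93 and 14 RPKM to 5.57, 6.48 and 8.08 RPKM (log2 difference -0.87, SE 0.14, adjusted p = 0.00994). It just missed the threshold without day 1 replicate 1 (0.0508) or 3 (0.051). On the lists, 1 of 38 matrix glycoproteins rose (Ltbp1), 1 of 30 proteases and inhibitors rose and 1 fell, and 2 of 35 TGF-beta and activin genes rose. The shares over all genes tested were 0.613% for rises and 0.359% for falls. These lists are not complete. Outside them, the metalloproteinase genes Adamts12 (log2 difference 0.88) and Adamts16 (1.16) and the activin-type receptor gene Acvr1c (1.24) were called higher. The proteoglycan gene Spock1 was called lower (-0.50). These 4 were named after their values were seen, and each missed the threshold in at least 4 of the 6 left-out-library fits.

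**Figure D4:**
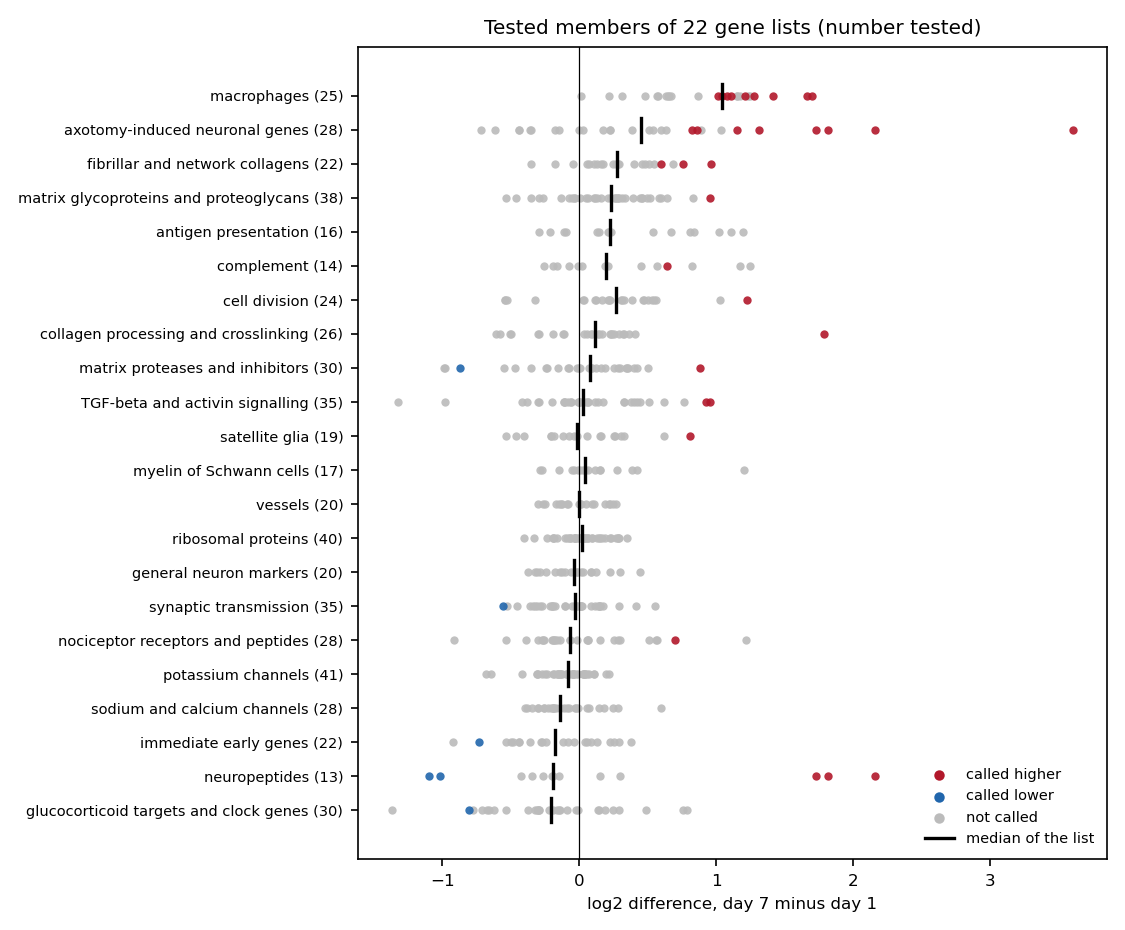
Log2 difference between day 7 and day 1 (x axis) of each tested member of 22 gene lists (rows, with the number tested), with called genes in red or blue and the list median as a black bar. The macrophage median lies at 1.04 and the axotomy-induced median at 0.45, while the medians of myelin, vessel, ribosomal protein and general neuron genes lie between -0.04 and 0.04.

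Adcyap1, Bdnf and Pcsk1 were among the genes that fell. Adcyap1 encodes the neuropeptide PACAP, which raises cyclic AMP in its target cells, and lies on chromosome 17 (GRCm38, 93199017 to 93206537). It was at 94.7, 65.4 and 78.5 RPKM at day 1 and at 33.5, 51.4 and 30.3 RPKM at day 7, against 15.7 to 19.4 RPKM in naive and 63.6 to 70.3 RPKM in day 3 libraries. The log2 difference was -1.10 (SE 0.18, adjusted p = 0.00994), and the day 7 libraries lay below the day 1 and day 3 ranges but above the naive range. It missed the threshold without day 1 replicate 1 (adjusted p = 0.0503) and with the day 1 and day 7 libraries alone (0.109). Bdnf, the neurotrophin that sensory neurons release onto spinal neurons, fell from 10.1, 8.49 and 11.4 RPKM to 4.08, 5.06 and 5.30 RPKM (log2 difference -1.01, SE 0.16, adjusted p = 0.00897), and its day 7 range overlapped the naive range of 3.01 to 4.64 RPKM. Pcsk1, the prohormone convertase that cuts peptide precursors and whose promoter with the cyclic AMP element is shown above, was at 29.1, 31.5 and 30.5 RPKM at day 1. At day 7 it was at 17.5, 18.3 and 19.1 RPKM, within or just below the naive range of 18.0 to 20.4 RPKM (log2 difference -0.75, SE 0.10, adjusted p = 0.00349). Pcsk1 was named after its values were seen.

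Fam150b, an older symbol for Alkal2, encodes a secreted ligand of the receptor tyrosine kinases Alk and Ltk. It fell from 15.7, 17.1 and 11.6 RPKM at day 1 to 3.90, 4.96 and 3.46 RPKM at day 7, which was 3.38-fold (log2 difference -1.76, SE 0.23, adjusted p = 0.00349). Its day 3 libraries already stood at 3.31 to 6.78 RPKM, and its naive libraries at 2.71 to 3.29 RPKM. Pde4c, a phosphodiesterase that breaks down cyclic AMP, fell from 5.92, 6.72 and 6.49 RPKM to 2.52, 2.48 and 3.49 RPKM (log2 difference -1.09, SE 0.16, adjusted p = 0.00654). Fam210b, a mitochondrial membrane protein gene, fell by 0.93 on the log2 scale (adjusted p = 0.00349). Bdnf, Fam150b, Pde4c and Fam210b kept their calls under every alternative in which they were tested.

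Procr and Tmem173, below the level at which names were taken, fell as well and were named after their values were seen. Procr, the receptor for activated protein C, whose AP-1 match is shown above, went from 4.55, 3.74 and 6.33 RPKM to 1.11, 1.24 and 0.634 RPKM (log2 difference -1.86, SE 0.25, adjusted p = 0.00349), with 0.417 to 0.964 RPKM in naive ganglia. Tmem173, which encodes the innate immune adaptor STING, went from 5.26, 4.41 and 5.64 RPKM to 1.75, 2.14 and 2.55 RPKM (log2 difference -1.12, SE 0.17, adjusted p = 0.00701), with 0.830 to 1.49 RPKM in naive ganglia. Both lay above naive at day 1. At day 7 the lowest Tmem173 library was still above the highest naive one, while the Procr libraries overlapped them.

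Early response genes and glucocorticoid targets gave single calls, where 0.359% of all genes tested were called lower. Of 22 tested immediate early genes 1 fell, the AP-1 subunit gene Fosl2, from 11, 8.72 and 9.31 RPKM to 5.22, 6.72 and 5.37 RPKM (log2 difference -0.73, adjusted p = 0.0414), and the list's median was -0.18. That call ended without any 1 of the 6 libraries (adjusted p 0.0617 to 0.18), and without naive replicate 2 (0.0611) or day 3 replicate 1 (0.0584), 2 (0.0591) or 3 (0.0599). Of 30 glucocorticoid targets and clock genes 1 fell, Fkbp5, a co-chaperone of the glucocorticoid receptor (log2 difference -0.81, adjusted p = 0.0196). Day 7 libraries lay below all day 1 libraries in 12 of the 30 and above them in 4. Over all genes tested these shares were 6.28% and 6.95%. Of the 30, 15 had an unadjusted p under 0.05, against 10.4% of all genes. The clock repressor gene Per1 had a log2 difference of -0.77 (adjusted p = 0.129), and the clock activators Arntl and Npas2 had differences of 0.76 (adjusted p = 0.215) and 0.79 (adjusted p = 0.0907). The labels used here give no hour of tissue collection. Fkbp5 missed the threshold without day 1 replicate 1 (0.0776) or 3 (0.0851) or day 7 replicate 1 (0.0659) or 2 (0.0783), and with no scaling between libraries (0.081).

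Receptors and channels that set the excitability of sensory neurons gave few calls. With 0.613% of all genes tested called higher and 0.359% lower, lists of this length would hold few calls in any case. The Mas-related receptor gene Mrgprb5 was at 5.50, 13.2 and 12.5 RPKM at day 1 and at 25.2, 18.6 and 28.9 RPKM at day 7, with a log2 difference of 1.22 that missed the threshold (adjusted p = 0.0552). Scn10a, the sodium channel Nav1.8 of nociceptors, was at 180.0, 199 and 204 RPKM at day 1 and at 164, 149 and 187 RPKM at day 7. After scaling its groups did not overlap, but the log2 difference of -0.26 (interval -0.53 to 0.02) did not pass (adjusted p = 0.525). None of 41 potassium channel genes was called, with 4 unadjusted p under 0.05 and 2 falls called by voom, and 30 of the 41 differences were below 0. None of 28 sodium and calcium channel genes was called by limma or voom, with 4 unadjusted p under 0.05. None of 16 mechanoreceptor and proprioceptor genes was called by either, but 14 of the 16 differences were below 0 and 5 had an unadjusted p under 0.05, against 10.4% of all genes. Ntrk3, the neurotrophin-3 receptor of that list, had a log2 difference of -0.45 (adjusted p = 0.13) and was called lower without day 7 replicate 1 and with array weights. The potassium channel genes Kcnh5 (-0.68, adjusted p = 0.147) and Kcnh7 (-0.42, adjusted p = 0.372) were likewise called lower under those settings. Of 35 synaptic genes 1 fell, the release regulator gene Cplx2 (log2 difference -0.55, adjusted p = 0.0354), and it missed the threshold without any 1 of the 6 libraries (0.0523 to 0.141).

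Glial and vessel genes gave few calls, as short lists would at the shares over all genes tested (0.613% higher, 0.359% lower). Of 19 satellite glia genes 1 rose, the endothelin receptor gene Ednrb, from 12.4, 8.99 and 11 RPKM to 17.6, 23.8 and 17.9 RPKM (log2 difference 0.81, SE 0.14, adjusted p = 0.0132), with naive libraries at 16.8 to 17.8 RPKM. It missed the threshold without day 1 replicate 2 (0.0531) or 3 (0.0535) or day 7 replicate 2 (0.0617). None of 17 myelin genes was called, with 3 unadjusted p under 0.05. Pmp2, a lipid-binding protein of myelin, was at 4.14, 5.68 and 7.07 RPKM at day 1 and at 7.86, 13.9 and 23.1 RPKM at day 7, with a log2 difference of 1.21 (adjusted p = 0.086), and it was called higher without day 7 replicate 1, with array weights and by voom. Mbp, the myelin basic protein, had a log2 difference of -0.01 (interval -0.31 to 0.29, adjusted p = 0.995). None of 20 vessel genes was called by limma or voom or had an unadjusted p under 0.05. Of 12 repair Schwann cell genes 1 fell, Bdnf, which also stands on the neuropeptide list. Of 24 cell division genes 1 rose, Top2a, the topoisomerase of dividing cells, from 0.694 to 0.788 RPKM in the day 1 libraries to 2.14 to 2.80 RPKM in the day 7 libraries (log2 difference 1.23, adjusted p = 0.0313). Without any 1 of the 6 libraries its adjusted p was 0.0605 to 0.112. None of 40 ribosomal protein genes was called by limma or voom, with no unadjusted p under 0.05, and none of 35 respiratory chain genes by either, with 1.

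Values at day 3 and in naive ganglia place the called genes in the time course. These positions use the same day 1 and day 7 libraries that chose the genes and were not tested. The day 3 mean lay past the midpoint between day 1 and day 7, on the day 7 side, in 80 of the 87 higher genes (92.0%) and in 35 of the 51 lower genes (68.6%). Among all tested genes it did so in 54.2% of those with a difference above 0 and in 55.4% of those below 0. The naive mean was nearer to day 7 than to day 1 in 17 of the 87 higher genes (19.5%) and in 45 of the 51 lower genes (88.2%), against 53.5% and 53.8% of all tested genes in the same directions. Gal, at 64.7, 93.2 and 76.9 RPKM at day 3, and Lipn, at 8.11 to 8.34 RPKM, already stood at or above their day 7 level by then. Loxl2 and Mpeg1, the latter at 3.30 to 5.23 RPKM at day 3, stood between the times.

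**Figure D5:**
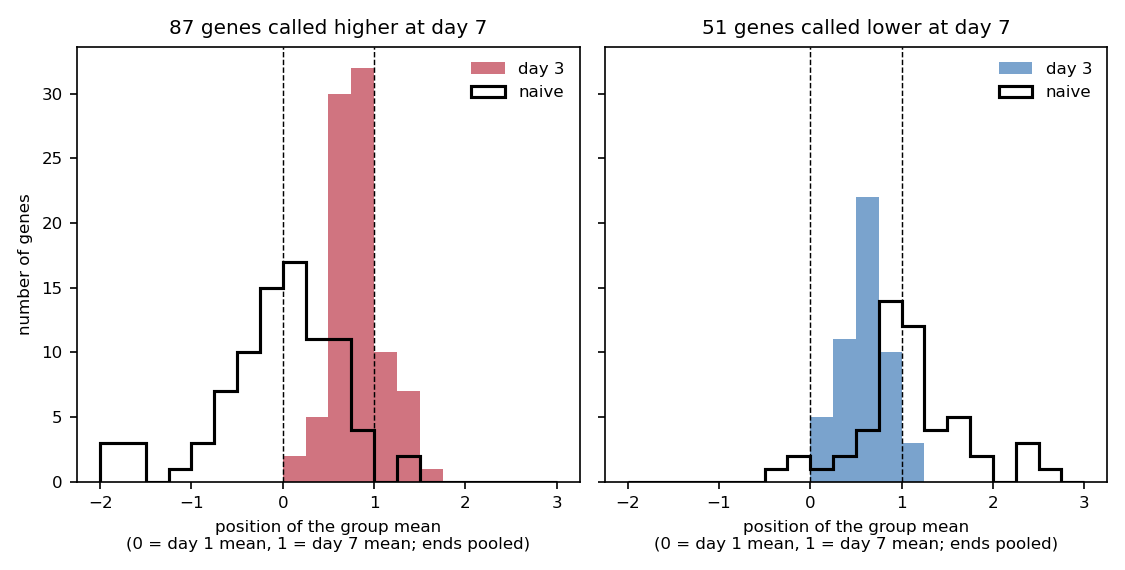
Number of called genes (y axis) by where the day 3 mean (filled) and the naive mean (outline) lie on a scale on which 0 is the day 1 mean and 1 the day 7 mean of that gene, for 87 higher genes on the left and 51 lower genes on the right. Day 3 lies mostly beyond the midpoint in both, while naive lies nearer to day 1 in the higher genes and nearer to day 7 in the lower genes.

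How many genes were called depended on single libraries. Without any one day 1 or day 7 library the counts ran from 36 to 72 higher and from 11 to 48 lower, with the fewest rises without day 1 replicate 3 and the fewest falls without day 1 replicate 1. Of the 138 genes 33 (25 higher, 8 lower) were called in all 6 of those fits. Rises called in all 6 fits included Nts, Gal, Npy, Anxa1, Lipn, Neto1, Gabrg1, Pde1a and Ppef1. They also included Ctss, Csf1r, Emr1, Mpeg1, Ms4a7, Mrc1, Cd33, Ctsc, Igf1, Col3a1 and Loxl2. The other rises were those of Slfn9, a schlafen gene that rose from 1.42 to 2.31 RPKM at day 1 to 5.06 to 6.53 RPKM at day 7, Cyp1b1, a cytochrome P450 gene (log2 difference 0.90, adjusted p = 0.00365), Trp53i11 and the unnamed genes 4930448F12Rik and AA536875. The falls called in all 6 fits were those of Bdnf, Fam150b, Fam210b, Pcsk1, Pde4c, Procr, Tmem173 and Sytl3. Sytl3 encodes a synaptotagmin-like vesicle protein (log2 difference -0.82, adjusted p = 0.00407). Several of these 33 calls ended under other settings. With the day 1 and day 7 libraries alone, the calls of Gal, Gabrg1, Pde1a, Ppef1, Ctsc, Igf1, Cyp1b1, Trp53i11, Pcsk1 and Sytl3 ended. Those of Mrc1, Pde1a and Trp53i11 ended without the 2 libraries with muscle transcripts, and those of Npy and Lipn with a pseudocount of 0.1. All 138 genes kept their direction in each alternative in which they were tested. Since the day 1 and day 7 libraries did not overlap in any of them, this was largely set in advance.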

How the data were processed

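Mouse dorsal root ganglion RNA was measured in 12 RNA-seq libraries, 3 per group, grouped and numbered by their titles. RNA was isolated with Trizol and DNase treatment, and a low-input amplification kit (500 pg) and TruSeq Nano gave the libraries, per the labels' protocols. The tools named, with no roles, are bcl2fastq 2.17, STAR, HTSeq, edgeR and limma, and the build mm10, per the submitters' processing notes. The values deposited by the authors were read as RPKM, inferred from their steps, since no unit is written in the files. How reads were counted, and whether by strand, is not given in the sources used here, so overlapping and antisense genes cannot be told apart. Amplified reads are not independent molecules.

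Whole reads were recovered from the steps for 20453 of 21597 detected genes (94.7%, tolerance 0.05 reads). Genes with RPKM of at least 1 in 3 libraries were kept. Libraries were scaled by trimmed means of log ratios (30% and 5% trimmed). limma 3.58.1 in R 4.3.3, with statmod 1.5.0, fitted 4 group means to log2(RPKM + 0.5) over all 12 libraries (residual degrees of freedom: 8) using a variance trend and robust moderation, two-sided, with Benjamini-Hochberg adjustment over 14195 genes. The added 0.5 understates changes of low genes. Adjusted p-values in the text are from this fit unless another is named. An exact permutation test of 3 against 3 libraries cannot go below 0.1, so none was run. The script was tested on simulated data. Tables and figures used Python 3.11.15, pandas 2.3.3 and matplotlib 3.10.9.

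The comparison, the 38 gene lists and the named genes were chosen with earlier results of these data known. Named were the 15 largest rises and falls among called genes with an average log2 value above 2 and no overlap of libraries, without unnamed genes, up to 4 genes per list with the smallest p, and a fixed set that holds Ctss, Loxl2, Adcyap1 and Atf3. Other names are marked in the text. The count for the list of nociceptor receptors and peptides is not reported here. Gene positions are from GENCODE M21 and promoters from RefSeq, which held 67 of the 87 higher and 39 of the 51 lower genes. Alternatives varied the pseudocount, filter, scaling, model and libraries.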

Additional observations from a re-analysis of the deposited data

How the results depend on the processing

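The count of genes called moved with the model and with single libraries, and the cause was not tested. Against 87 higher and 51 lower genes, the 6 libraries of day 1 and day 7 alone, with fewer degrees of freedom, gave 18 and 8, and leaving out the 2 libraries with muscle transcripts (naive replicate 1 and day 7 replicate 2) gave 26 and 15. Array weights gave 165 and 128, and voom on recovered reads 152 and 87. A pseudocount of 0.1 gave 71 higher and 32 lower genes. Leaving out any one of the 12 libraries gave 36 to 77 higher and 11 to 48 lower genes, and 50 to 113 of the 138 calls were kept. The lowest kept count, 50, was without day 1 replicate 3. A pseudocount of 1, no filter or one at RPKM 5, no scaling, median scaling, and no trend or robust moderation each left both counts within 1.5 times. All 138 genes kept their direction and an unadjusted p under 0.05 in each of the 24 alternatives in which they were tested. They were chosen on these same libraries, which separated day 7 from day 1 in each gene. That outcome was therefore largely set in advance and is no independent check. With the replicate number as a block the counts were 61 and 30. The labels share only a number between days, and the deviations of same-numbered day 1 and day 7 libraries correlated at 0.062, -0.171 and 0.224, so the libraries were not treated as pairs. A count model in edgeR, planned for the case that the files held counts, was not run, since they hold RPKM. Genes of low RPKM rest on few reads, so their changes are less certain, and the pseudocount may understate them.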
